A study of Mus musculus with 3 samples.

Results

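The 10 lymphocyte integrin genes described here were Itgae, Itgal, Itga1, Itga2, Itga4, Itgam, Itgax, Itgb1, Itgb2 and Itgb7, chosen by gene symbol from 22350 protein-coding genes in an annotation of the mouse genome build mm9. For each gene, the window was the gene body with 20 kb on either side, and every Runx3 peak and every H3K4me1 region that shared at least 1 bp with the window was taken. This gave 47 of 15524 Runx3 peaks and 75 of 49902 H3K4me1 regions. The windows of Itgam and Itgax overlap, and 4 peaks and 2 H3K4me1 regions were counted for both, as was 1 H3K4me1 region for both Itga1 and Itga2.

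Integrins are cell surface receptors made of an α and a β chain, and they hold lymphocytes to other cells and to the extracellular matrix. In leukocytes the β2 chain, encoded by Itgb2, pairs with αL, αM, αX or αD, the β7 chain pairs with α4 or αE, and the β1 chain pairs with many α chains, among them the collagen-binding α1 and α2. Runx3 is a transcription factor of cytotoxic lymphocytes that binds DNA through its Runt domain. H3K4me1, monomethylation of lysine 4 of histone H3, is a mark of enhancers and of the flanks of active promoters.

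The study compared 3 chromatin immunoprecipitation sequencing (ChIP-seq) groups of 1 sample each, all from freshly isolated, resting splenic natural killer cells (NKC) of ICR mice with no genetic change stated. The groups were precipitated with a polyclonal anti-Runx3 antibody, a monoclonal anti-H3K4me1 antibody or non-immune rabbit serum (NIS), the last being the control against which regions were called. The labels name an NKp46 sort, while the methods of the study name DX5, an antibody to CD49b, which is the product of Itga2. Each antibody had 1 list of regions, so no difference below has a replicate check and no test was run, and the lists gave position without height or p-value, so peaks could not be ranked by strength. As a check of the labelled cell type, all 8 NK marker genes on a list had a Runx3 peak, with a median of 11.8 peaks per 100 kb and 74.5% of the window inside H3K4me1 regions. A peak was present at 3 of 5 B cell, 2 of 5 T cell and 3 of 5 myeloid marker genes, against 51.0% of all protein-coding genes. Peak presence alone thus did not set these 15 genes apart from other genes. None of the 15 had a peak at its start, against 27.2% of protein-coding genes. Median H3K4me1 coverage was 7.24%, 8.42% and 4.96%, and the median peak density of each list was below that of the NK genes. The highest coverage among the 15 was 43.4% at Cd3g, a T cell marker with 2 peaks.

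The DNA under the peaks is shown first, because each integrin gene had a peak within 5 kb of a transcription start site (TSS) and each of those peaks held a RUNX consensus. The consensus letters searched were TGTGGT or TGTGGC and also TGCGGT or TGCGGC, on both strands. For every gene the peak nearest its TSS was taken, and the match closest to the midpoint of that peak is printed in capitals on the strand on which it reads as written. Sequences are from mm9 (NCBIM37), 5′ to 3′, and those that touch an untranslated region are kept shorter.
Itgb2, chr10:76993110-76993139, minus strand: gccagctggctgTGTGGTtgtgtctaaaga
Itgal, chr7:134439425-134439490, plus strand: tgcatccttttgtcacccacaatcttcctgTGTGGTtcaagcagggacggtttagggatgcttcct
Itgam, chr7:135206203-135206232, minus strand: agaagtgtgaacTGTGGTatttcaggcacc
Itgax, chr7:135274362-135274427, plus strand: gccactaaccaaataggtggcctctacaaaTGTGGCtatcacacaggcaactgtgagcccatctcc
Itgae, chr11:72908341-72908406, plus strand: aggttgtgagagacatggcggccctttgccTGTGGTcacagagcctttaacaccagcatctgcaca
Itgb7, chr15:102061540-102061605, plus strand: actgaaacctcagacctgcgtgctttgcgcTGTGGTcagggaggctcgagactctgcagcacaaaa
Itga4, chr2:79095627-79095656, plus strand: gatcgctccgccTGTGGCcaccaattcccc
Itgb1, chr8:131209898-131209963, plus strand: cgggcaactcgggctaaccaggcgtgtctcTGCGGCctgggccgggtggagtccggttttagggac
Itga1, chr13:115888700-115888765, plus strand: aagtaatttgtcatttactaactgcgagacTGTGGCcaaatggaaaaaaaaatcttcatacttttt
Itga2, chr13:115722072-115722137, minus strand: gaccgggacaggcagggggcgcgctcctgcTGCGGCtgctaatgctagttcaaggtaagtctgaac
The letters nearest the midpoint were TGTGGT at Itgb2, Itgal, Itgam, Itgae and Itgb7, TGTGGC at Itgax, Itga4 and Itga1, and TGCGGC at Itgb1 and Itga2.

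Every integrin gene of the list carried Runx3 peaks. All 10 had at least 1 peak in the window, against 51.0% of protein-coding genes, and all 10 had a peak that overlapped the gene body, against 33.6%. At least 3 peaks lay at 9 of the 10 genes, Itgb1 being the exception, against 14.1% of protein-coding genes. A peak with its midpoint under 1 kb from a TSS of the gene, called a start peak below, was found at 7 genes against 27.2%, and Itgae, Itga1 and Itgax had none. All 10 genes had H3K4me1 regions, against 74.0%. The windows of the integrin genes were longer than usual, with a median of 92.2 kb against 55.4 kb over all protein-coding genes, and long windows hold more peaks. Per 100 kb, the median was 5.74 Runx3 peaks at the 10 genes, 0.459 over all protein-coding genes and 2.32 over those with a peak. The median share of the window inside H3K4me1 regions was 47.4%, compared with 7.38% over all protein-coding genes and 16.0% over those with a peak.

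The genes differed widely among themselves. Runx3 peaks ranged from 10 at Itgb2 to 2 at Itgb1, and the order between them was Itgam with 8, Itga2 with 7, Itgal and Itgax with 5, Itga4 and Itgb7 with 4, and Itga1 and Itgae with 3. With no replicate lists, the error of these counts is unknown, so the order is descriptive and no 2 genes were shown to differ. Per 100 kb the order ran from 13.3 at Itgb2 to 1.63 at Itga1, and Itgax and Itgb7, which have short windows, moved up to 8.18 and 7.15. H3K4me1 coverage split the genes into 6 with 47.1% to 56.2% of the window covered, namely Itgb2, Itgax, Itga2, Itgal, Itgam and Itgb7, and 4 with less, from 31.0% at Itgb1 to 9.68% at Itga1.

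**Figure D1:**
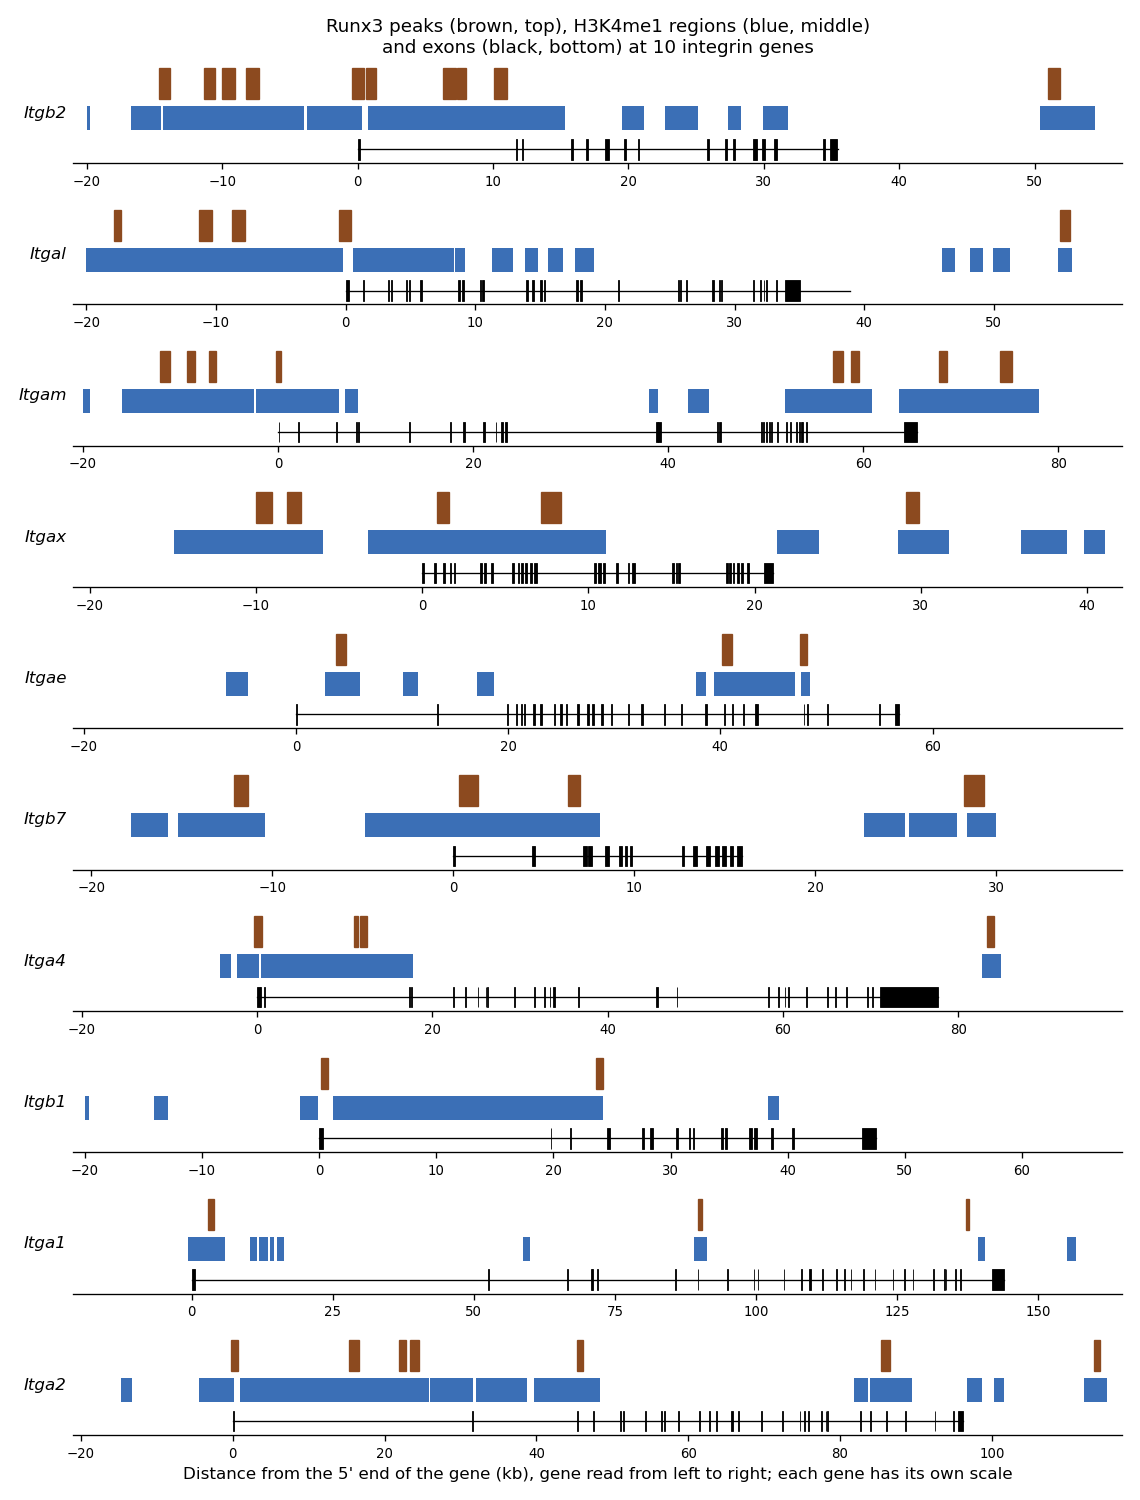
Runx3 peaks (brown), H3K4me1 regions (blue, clipped to the window) and exons of 1 transcript per gene (black) at the 10 integrin genes; the horizontal axis is the distance in kb from the 5′ end of the gene, with 20 kb on either side. The Runx3 peaks of Itgb2 fall in a cluster upstream and a cluster over the start and intron 1, and the peaks at the starts of Itgal, Itga2 and Itgb1 lie over gaps between H3K4me1 regions.

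Itgb2 encodes the β2 chain (CD18), which all β2 integrins of leukocytes share. Positions below are peak midpoints measured from the 5′ end of the gene, negative values being upstream. Itgb2 had 10 Runx3 peaks and 10 H3K4me1 regions in a window of 75.5 kb on chromosome 10, and 42.4 kb of that window lay inside H3K4me1 regions. Only 0.336% of protein-coding genes had 10 peaks or more, and 0.349% reached its density of 13.3 peaks per 100 kb. Its peaks formed 2 groups, 4 of them upstream, with midpoints from -14.3 to -7.77 kb, and 5 between the TSS and 10.5 kb. The start peak nearest the TSS, at chr10:76992583-76993460, covered the TSS and the noncoding part of exon 1, and a further start peak followed in intron 1 at 1.00 kb. The other 3 peaks of intron 1 had their midpoints at 6.77, 7.68 and 10.5 kb, and the peak at 6.77 kb was the widest of the window at 997 bp. Only 101 bp separated the peaks at 6.77 and 7.68 kb, the smallest gap between neighbouring peaks at any of the 10 genes. The peak farthest upstream lay 0.165 kb from the start of 1810008A18Rik. The peak at 51.4 kb lay 0.043 kb from the start of Pttg1ip, which encodes a PTTG1-binding protein. The upstream peaks at -10.9, -9.54 and -7.77 kb were also nearer to the start of 1810008A18Rik, at 3.49, 4.90 and 6.67 kb, than to that of Itgb2. Only 5 of the 10 peaks thus had the start of Itgb2 as their nearest protein-coding start.

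Itgal encodes αL (CD11a), the partner of β2 in LFA-1, the main integrin by which lymphocytes bind ICAM-1. It had 5 Runx3 peaks, of which 3 were upstream at -17.6, -10.8 and -8.27 kb, 1 was the start peak and 1 was downstream at 55.5 kb. No peak lay in the gene beyond the start peak, although 6 H3K4me1 regions, from 0.782 to 7.75 kb wide, covered parts of the body between 0.577 and 19.1 kb. The start peak at chr7:134439249-134440157 had its midpoint at -71 bp from the annotated 5′ end. It was the only 1 of the 5 peaks whose nearest protein-coding start was that of Itgal. The upstream peaks were nearest to the start of Sephs2 or Gm17511, and the downstream peak to that of Zfp768. The widest peak, at -10.8 kb, was 1022 bp. A single H3K4me1 region of 26.0 kb, the widest at any of the 10 genes, ended at -0.188 kb, just before the TSS, and touched 5 Runx3 peaks, including 1 that lies beyond the 20 kb limit.

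Itgam and Itgax encode αM (CD11b) and αX (CD11c), which pair with β2 in the complement receptors CR3 and CR4. In mature mouse NKC, αM is also a maturation marker. The genes lie in the same direction 1.39 kb apart on chromosome 7, and 728 kb separate Itgal from Itgam. Itgam had 8 peaks, a number reached by 0.828% of protein-coding genes, with 3 upstream at -11.6, -8.92 and -6.75 kb, a narrow start peak of 535 bp at chr7:135205948-135206482, 2 in intron 29 at 57.4 and 59.2 kb, and 2 beyond its end that lie in Itgax. The 3 upstream peaks shared a single H3K4me1 region of 13.5 kb. Between 8.21 and 38.1 kb the body of Itgam held no Runx3 peak and no H3K4me1 region.

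The 5 peaks of Itgax were the 2 in the 3′ part of Itgam, which are at -9.53 and -7.71 kb from the 5′ end of Itgax, 2 inside Itgax, in intron 2 at 1.26 kb and in intron 14 at 7.76 kb, and 1 downstream at 29.5 kb. The peak of intron 2, at chr7:135273956-135274691, was the nearest to a TSS of Itgax at 1.24 kb. The peak of intron 14, at 1220 bp, was the widest for both genes. A single H3K4me1 region of 14.3 kb ran from -3.27 to 11.1 kb of Itgax and held both peaks of the gene body. Of the peaks that the 2 genes share, 2 had their nearest coding start in Itgam and 2 in Itgax, and the lists do not assign a peak to a gene.

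Itgae encodes αE (CD103), which pairs with β7 to bind E-cadherin on epithelial cells. Its 3 peaks all lay in introns, in intron 1 at 4.24 kb, intron 22 at 40.6 kb and intron 26 at 47.8 kb. The peak of intron 1, at chr11:72907811-72908841, was both the nearest to the TSS and the widest at 1031 bp, and it was inside an H3K4me1 region of 3.30 kb. The TSS of Itgae itself was in no H3K4me1 region, the nearest regions ending at -4.54 kb and beginning at 2.72 kb. The peak in intron 26 lay 0.098 kb from the start of Gsg2, which encodes the mitotic histone kinase haspin and is contained in Itgae on the opposite strand. With 3.10 peaks per 100 kb and 18.5% H3K4me1 coverage, Itgae stood below the median of the 10 genes on both measures.

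Itgb7 encodes β7, the partner of αE and of α4. In a short window of 55.9 kb it had 4 peaks, upstream at -11.7 kb, in intron 1 at 0.833 kb, in intron 2 at 6.66 kb and downstream at 28.8 kb. Both peaks of the gene body, including the start peak at chr15:102061007-102062059, were inside a single H3K4me1 region of 13.0 kb that covered the TSS. The other 2 peaks were each under 1 kb from a start of another gene, Rarg, which encodes a retinoic acid receptor, and Zfp740, a zinc finger gene. The peak near Zfp740 was the widest, at 1095 bp.

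Itga4 encodes α4, which with β1 forms VLA-4, a receptor for VCAM-1 and fibronectin, and with β7 the gut homing receptor for MAdCAM-1. It had 4 peaks, a start peak over the noncoding part of exon 1, a pair at 11.2 and 12.1 kb, and 1 downstream at 83.7 kb. The pair lay in the intron from 0.873 to 17.4 kb. The downstream peak was 0.530 kb from a start of Cerkl, a ceramide kinase-like gene that overlaps the 3′ end of Itga4. The start peak, at chr2:79095199-79096116, was the widest at 918 bp, and the first of the intronic pair, at 461 bp, was the narrowest of the 47 peaks. The start peak and both intronic peaks touched an H3K4me1 region of 17.3 kb that began 0.473 kb after the 5′ end, and from 17.7 kb to 82.7 kb there was neither a peak nor an H3K4me1 region.

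Itgb1 encodes β1, the common partner of α1, α2, α4 and other α chains. It had the fewest peaks, 2, at a start and in intron 3 at 23.9 kb, and 27.5% of protein-coding genes had at least as many. The start peak at chr8:131209670-131210331, 662 bp wide, was the widest of the window. It touched no H3K4me1 region and lay inside a gap of 1268 bp between 2 such regions. An H3K4me1 region of 23.1 kb followed, from 1.16 to 24.2 kb, and the second peak lay near its far end. In all 31.0% of the window carried H3K4me1, a share reached by 8.99% of protein-coding genes, while its peak density of 2.28 per 100 kb was reached by 26.2%.

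Itga1 and Itga2 encode the collagen receptor chains α1 (CD49a) and α2 (CD49b) and lie 26.0 kb apart in the same direction on chromosome 13. They stood far apart in both lists. Itga2 had 7 peaks, 12 H3K4me1 regions and 48.4% H3K4me1 coverage, whereas Itga1, the longer gene, had 3 peaks, 9 regions and 9.68% coverage. Its density of 1.63 peaks per 100 kb was the lowest of the 10 genes, and 37.5% of protein-coding genes were at or above it.

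At Itga2, 4 of the 7 peaks were in intron 1, a start peak at 0.212 kb and distal peaks at 15.9, 22.4 and 24.0 kb, the last 3 inside an H3K4me1 region of 24.9 kb. The start peak was at chr13:115721571-115722504. Peaks in intron 3 at 45.8 kb and in intron 25 at 86.0 kb followed, and the last, at 114 kb, was 0.043 kb from the start of Mocs2, which encodes molybdopterin synthase subunits. The widest of the 47 peaks was the one at 15.9 kb, with 1312 bp. Itga1 had a peak in intron 1 at 3.41 kb (chr13:115888266-115889261), which was its widest at 996 bp and lay inside an H3K4me1 region of 6.65 kb over the TSS. Its other peaks were in intron 8 at 90.1 kb and in intron 28 at 137 kb, the latter outside every H3K4me1 region. Sorting on DX5, which the methods name, would select cells by the product of Itga2, and whether this bears on the Itga2 regions was not tested.

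**Figure D2:**
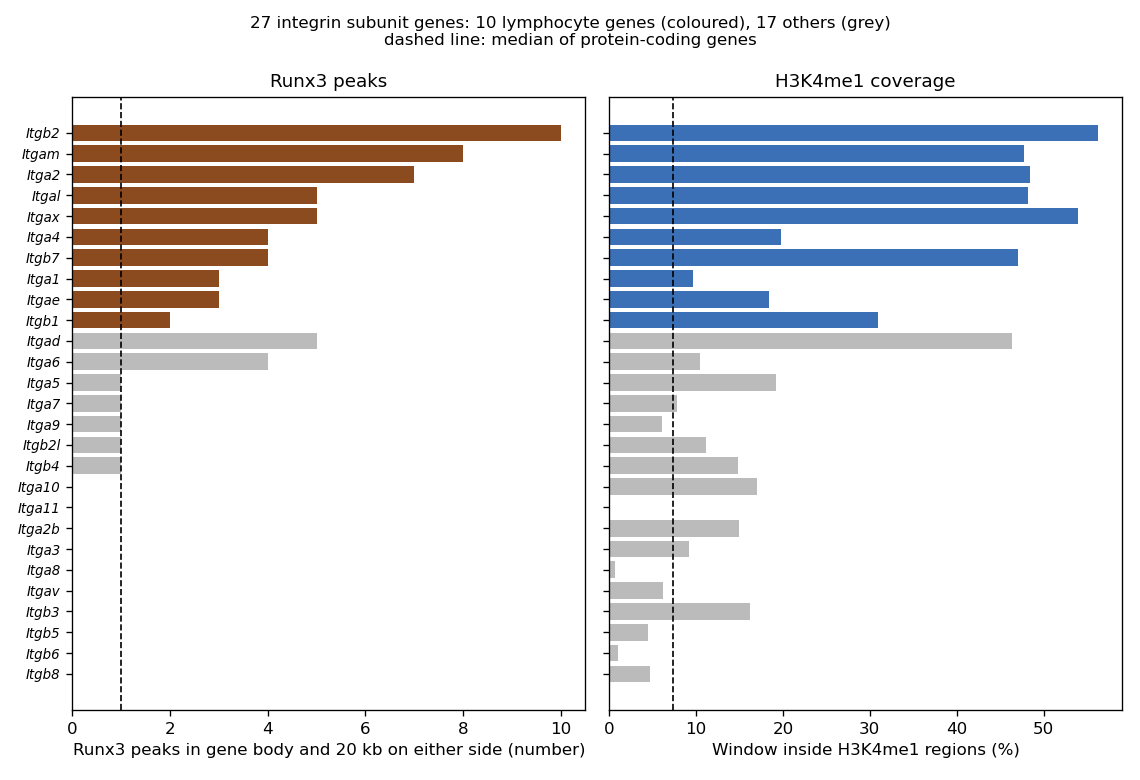
Number of Runx3 peaks (left) and percent of the window inside H3K4me1 regions (right) for 27 integrin subunit genes, the 10 lymphocyte genes in colour and 17 others in grey, with the median of protein-coding genes as a dashed line (1 peak and 7.38%). All 10 lymphocyte genes are above both lines, and 10 of the 17 other genes have no peak.

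The 47 peaks were compared with the whole Runx3 list. The choice of genes was by symbol, but it was made with earlier results of these data known, so the comparisons are descriptive. An H3K4me1 region overlapped 45 of the 47 peaks (95.7%, Wilson 95% interval 85.8 to 98.8%), the same share as over all 15524 peaks (95.7%). These intervals cover counting error only. The midpoint was inside a region for 42 peaks (89.4%, interval 77.4 to 95.4%) against 83.6% of all peaks. The peaks with no H3K4me1 overlap were the start peak of Itgb1 and the peak in intron 28 of Itga1. Peak widths were ordinary, with a median of 838 bp against 825 bp. Under 1 kb from any TSS were 15 of the 47 peaks (31.9%, interval 20.4 to 46.2%), against 39.1% of all peaks. The nearest protein-coding start belonged to 1 of the 10 integrin genes for 28 peaks and to another gene for 19, and 7 peaks were under 1 kb from a start of another protein-coding gene. Of the 51 pairs of gene and peak, 8 were at a start, 22 more were in introns, 13 were upstream and 8 were downstream. Counting start peaks too, intron 1 held 12 midpoints, of which 8 were over 1 kb from a start.

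Most start peaks reached into an interruption of H3K4me1, as did most start peaks over all protein-coding genes. Of the 8 start peaks, 6 reached into a gap with an H3K4me1 region within 2 kb on either side (75%, interval 40.9 to 92.9%). Over all protein-coding genes 61.7% of start peaks did so, a share inside that interval. At least 1 annotated TSS was itself inside an H3K4me1 region at 8 of the 10 genes, against 43.6% of protein-coding genes. Measured from the 5′ end, the gap ran from -187 to 576 bp at Itgal, from 175 to 931 bp at Itga2, from 254 to 472 bp at Itga4 and from -104 to 1163 bp at Itgb1. At Itgb2 both start peaks reached into 1 gap, from 318 to 775 bp, from opposite sides. Since both are counted, the 8 start peaks were not independent, and the interval for the 6 is too narrow. The start peaks of Itgam and Itgb7 were wholly inside H3K4me1 regions. Wholly inside an H3K4me1 region were thus 2 of the 8 (25%), near the 29.9% of start peaks over all protein-coding genes. Of the other 39 peaks, 7 were start peaks of neighbouring genes, and 4 of these, at Gsg2, Mocs2, 1810008A18Rik and Zfp740, reached into such a gap. Among the remaining 32 peaks, 0 reached into a gap (interval 0 to 10.7%) and 31 were wholly inside an H3K4me1 region (96.9%, interval 84.3 to 99.4%), against 3.35% and 91.2% of all Runx3 peaks away from coding starts.

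Broad H3K4me1 regions were frequent at these genes. At least 1 region of 10 kb or more, a limit set after the values were seen, lay at 8 of the 10 genes, against 5.38% of protein-coding genes. Itgae and Itga1 were without. Windows of the 10 genes were longer, with a median of 92.2 kb against 55.4 kb, and a long window can touch more regions. The only such region at Itgax was also counted for Itgam. The 9 such regions were 12% of the 75 (interval 6.44 to 21.3%), against 1.99% of all 49902 regions. At Itgb2 a region of 10.4 kb upstream and a region of 14.5 kb from 0.776 kb onward each touched 4 peaks. Among the 75 regions 31 overlapped a Runx3 peak (41.3%, interval 30.9 to 52.6%), and over the whole H3K4me1 list 28.6% did.

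A RUNX consensus was present in 46 of the 47 peaks (97.9%, interval 88.9 to 99.6%), in 93.3% of all Runx3 peaks and in 74.9% of windows of the same width placed 5 kb downstream of all peaks. The corresponding downstream windows of the integrin peaks held one in 31 of 43 (72.1%). Downstream here means toward higher coordinates. Windows that touched a Runx3 peak, passed the chromosome end or held an unread base were left out, which left 14478 for all peaks. Within the central 200 bp of the integrin peaks, the share with a RUNX consensus was 74.5% (interval 60.5 to 84.7%), and over all peaks it was 69.1%. Matches were as dense as in the whole list, 3.21 and 3.19 per kb. TGTGGT was in 35 of the 47 peaks (74.5%), TGTGGC in 27 (57.4%), TGCGGC in 9 (19.1%) and TGCGGT in 7 (14.9%), and over all peaks these letters were in 65.5%, 54.1%, 26.1% and 24.7%. The only peak with none of the 4 was in intron 1 of Itga2, at chr13:115699465-115700310, and it held 2 ETS matches.

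**Figure D3:**
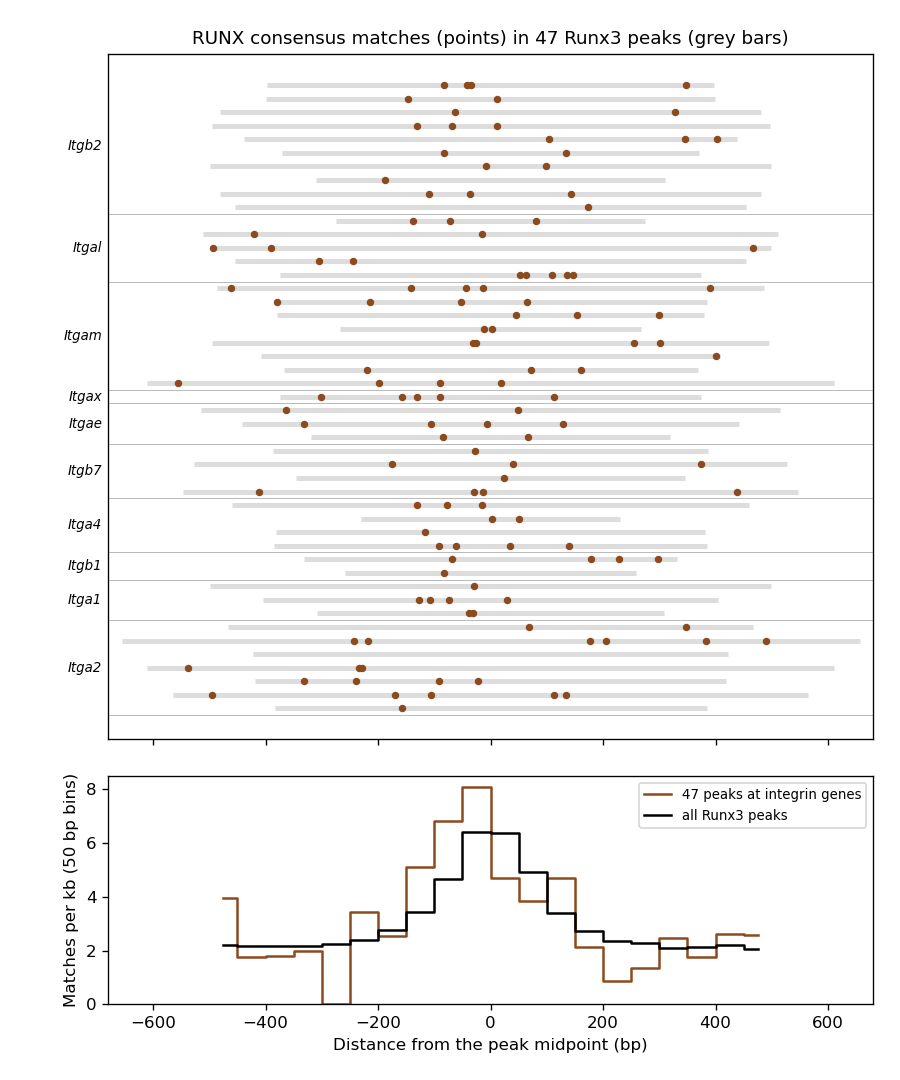
Positions of RUNX consensus matches (points) in the 47 Runx3 peaks (grey bars, to scale), grouped by gene with peaks shared by Itgam and Itgax shown once under Itgam, and below them the number of matches per kb in 50 bp bins for these peaks and for all 15524; the horizontal axis is the distance from the peak midpoint in bp. Both curves are highest close to the midpoint, and the bins of the 47 peaks hold few matches each.

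Consensus letters of other factors were also counted on both strands. ETS letters (AGGAAGT or CGGAAGT) were in 19 of the 47 peaks (40.4%, interval 27.6 to 54.7%), in 41.8% of all peaks and in 21.6% of all downstream windows. Within the central 200 bp, ETS letters were in 6 peaks (12.8%, interval 5.98 to 25.2%) against 20.1% of all peaks. A RUNX and an ETS match lay within 50 bp of each other in 8 peaks (17.0%, interval 8.89 to 30.1%), 4 of them at Itgb2, against 15.9% of all. AP-1 letters (TGAGTCA) were in 10 peaks (21.3%, interval 12.0 to 34.9%) against 16.5%, and T-box letters (AGGTGTGA) in 3 (6.38%, interval 2.19 to 17.2%) against 5.92%. For each of these letter sets searched over the whole peak, the value of all peaks was inside the interval of the integrin peaks.

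The peak with the most RUNX matches was that of Itga2 intron 1 at 15.9 kb, with 6. It was followed by 4 distal peaks with 5 each, in intron 25 of Itga2, downstream of Itgal at 55.5 kb, upstream of Itgam at -11.6 kb and downstream of Itgax at 29.5 kb. A stretch of 300 bases from each of the Itga2 peaks is shown, as examples of RUNX letters far from a TSS in the gene of the DX5 antigen, with matches in capitals on either strand (GCCACA and ACCACA are TGTGGC and TGTGGT read from the other strand).
Itga2 intron 1, chr13:115706416-115706715, plus strand: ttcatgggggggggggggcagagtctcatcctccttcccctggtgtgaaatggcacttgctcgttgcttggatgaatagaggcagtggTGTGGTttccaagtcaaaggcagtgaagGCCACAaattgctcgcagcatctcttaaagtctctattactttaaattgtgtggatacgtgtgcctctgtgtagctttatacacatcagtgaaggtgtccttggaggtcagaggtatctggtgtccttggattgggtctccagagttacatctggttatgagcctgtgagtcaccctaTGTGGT
Itga2 intron 25, chr13:115636084-115636383, minus strand: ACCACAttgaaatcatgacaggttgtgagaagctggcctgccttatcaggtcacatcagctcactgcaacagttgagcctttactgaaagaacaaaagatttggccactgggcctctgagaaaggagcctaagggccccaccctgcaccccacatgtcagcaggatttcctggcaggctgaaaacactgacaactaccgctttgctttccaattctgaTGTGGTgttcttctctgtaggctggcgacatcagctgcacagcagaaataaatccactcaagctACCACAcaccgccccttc
Each stretch holds 3 of the matches of its peak. Neither peak had a match within its central 200 bp, where 74.5% of the integrin peaks had one. The match nearest the midpoint lay 177 bp from it in the intron 1 peak and 106 bp from it in the intron 25 peak.

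The peak of intron 29 of Itgam at chr7:135263033-135264021, which is also the peak at -9.53 kb of Itgax, had an unusual sequence. Its first 250 bases are a tandem repeat with a period of 25 bp (72% of bases equal to the base 25 bp on, against a median of 22.2% at other spacings), and the repeat held 5 AP-1 matches and 3 T-box matches, shown in capitals.
Itgam intron 29, repeat, chr7:135263033-135263282, plus strand: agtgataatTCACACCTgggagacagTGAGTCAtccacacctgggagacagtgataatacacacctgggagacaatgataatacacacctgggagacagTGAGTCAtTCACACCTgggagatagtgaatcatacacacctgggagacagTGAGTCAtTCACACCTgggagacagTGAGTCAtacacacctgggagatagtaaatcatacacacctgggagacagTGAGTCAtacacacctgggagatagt
Only 2 of the 15524 Runx3 peaks (0.0129%) held 5 or more AP-1 matches. The repeat has no RUNX match. Close to the midpoint, at -29 bp from it, the same peak held a pair of RUNX matches that face each other, shown in capitals.
Itgam intron 29, facing matches, chr7:135263465-135263531, plus strand: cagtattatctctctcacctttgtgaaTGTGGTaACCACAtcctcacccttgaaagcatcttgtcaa
Facing matches at most 10 bp apart were in 4 of the 47 peaks (8.51%) and in 406 of all peaks (2.62%).

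The other 17 integrin subunit genes on a list, many of which serve in epithelia, platelets, muscle or stroma, had fewer Runx3 peaks than the 10 genes. A peak was present at 7 of them and absent at 10, where 51.0% of protein-coding genes had one, and with 50 kb on either side 12 had a peak. None of the 17 had a start peak, against 27.2% of protein-coding genes, and their median H3K4me1 coverage was 9.19% with a median window of 102 kb. Among them Itgad and Itga6 had the most peaks, and only these 2 had both a peak count and an H3K4me1 coverage within the ranges of the 10 genes. Itgad, which encodes the fourth β2 partner αD and follows Itgax on chromosome 7, had 5 peaks and 46.4% coverage, but 2 of its peaks are shared with the Itgam or Itgax windows. Itga6, the laminin receptor chain α6, had 4 peaks and 10.5% coverage. Itga5, Itga7, Itga9, Itgb2l and Itgb4 had 1 peak each. Itga10, Itga11, Itga2b, Itga3, Itga8, Itgav, Itgb3, Itgb5, Itgb6 and Itgb8 had no peak, and of these Itga11 also had no H3K4me1 region.

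Of 22 genes for proteins that regulate integrin activation or link integrins to the cytoskeleton, 18 carried peaks and 14 had a start peak. The shares of protein-coding genes were 51.0% and 27.2%. Their windows were long, with a median of 110 kb against 55.4 kb over all protein-coding genes, and long windows hold more peaks. Medians over the 22 genes were 3.35 peaks per 100 kb and 23.3% H3K4me1 coverage. The highest counts were at Cyth1, which encodes cytohesin-1, a β2 tail-binding protein, with 10 peaks, at Apbb1ip, which encodes the Rap1 effector RIAM, with 8, and at Pxn, which encodes paxillin, and Rap1b, a small GTPase of inside-out activation, with 7 each. Within families the counts differed, with 4 peaks at Tln1 and 0 at Tln2 (talins), and 2 at Fermt3 and 0 at Fermt1 and Fermt2 (kindlins). Parva was the remaining gene with 0. Among 8 ligand genes 6 had a peak, against 51.0%, led by Cdh1 (E-cadherin) with 3 and by Icam1, Madcam1 and Col4a1 with 2 each, and Col1a1 and Vcam1 had 0.

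**Figure D4:**
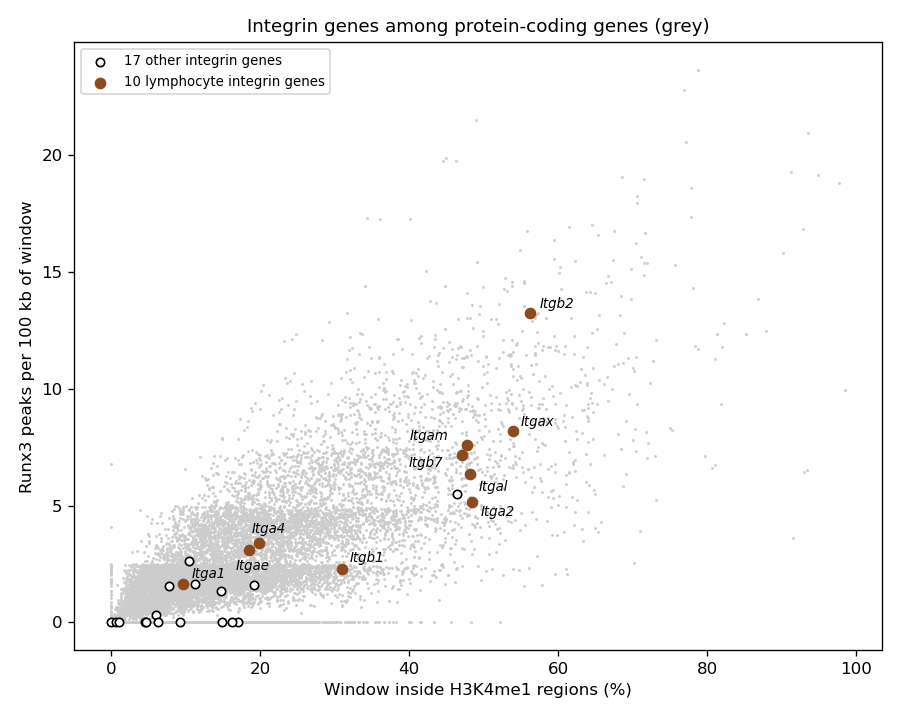
Runx3 peaks per 100 kb of window against the percent of the window inside H3K4me1 regions for protein-coding genes (grey points), the 10 lymphocyte integrin genes (brown, named) and 17 other integrin genes (open circles). Itgb2 is the highest of the integrin genes at 13.3 peaks per 100 kb and 56.2%, and Itga1, at 1.63 and 9.68%, sits among the other integrin genes.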

How the data were processed

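Resting splenic NKC of ICR mice were fixed in 1% formaldehyde, and chromatin was sheared to about 300 bp and precipitated (Runx3, H3K4me1 or NIS, 1 sample each). Per the labels and the methods of the study, the authors aligned 40 bp reads to mm9 (CASAVA 1.7 in the submitters' processing notes), joined the reads of biological repeats, and called regions with MACS against NIS. The deposited files are 2 lists of region coordinates with 0 filled columns beside position and running name, so depth, height, signal and p-values of single regions are unknown here, NIS signal was not analysed here, and 0 columns of per-sample values were left unused. Joined repeats mean that agreement between repeats cannot be seen, and calls depend on the depth of each antibody's library.

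Coordinates were converted to 1-based and intersected with GENCODE vM1 genes (build NCBIM37, that is mm9) in Python 3.11.15 with numpy 2.4.6. Chromosome names and lengths were compared, and 1 region ended 23 bp past its chromosome. A row belonged to a gene if it shared 1 bp or more with the gene body extended by 20 kb. Start peaks had the midpoint under 1 kb from any annotated TSS of the gene, and sequence was read from the same build. Wilson 95% intervals used scipy 1.17.1, and figures matplotlib 3.10.9. The overlap and motif functions were tested on simulated data. There are no replicate lists, so no test was run.

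The 10 genes, the lists of other integrins, regulators, ligands and cell markers, and all limits were chosen with earlier results of these data known. Named genes were all 10 integrin genes, the other integrins by their counts with values for those with most peaks or like the 10 genes, the regulators and ligands with most peaks (ties included) and those with 0, and window genes with a peak under 1 kb from their start. For each of the 10 genes the peak nearest the start and the widest peak were named. Tln1 and Fermt3, the 10 kb limit, the gaps in H3K4me1 at starts, the spacing of peaks, the tandem repeat and the facing RUNX matches were picked after their values were seen. Alternatives were other flanks, midpoint and start rules, wide regions alone, merged regions, the nearest start, the central 200 bp and leaving out Itgb2.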

Additional observations from a re-analysis of the deposited data

How the results depend on the processing

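The 10 results were recomputed under 57 alternatives, of which 45 moved by less than 1.5 times or stayed inside the 95% interval. The number of genes with a peak stayed at 10, or 9 with only peaks at least as wide as the median, and the number with a start peak ran from 5 to 10. Without a flank, the 47 Runx3 peaks became 30 and the 75 H3K4me1 regions 44, and a 5 kb flank also gave 30 peaks. Restricting to peaks at least as wide as the list's median gave 24 peaks, 2.54 per 100 kb in place of 4.97 over the joined windows, and 100% overlap with H3K4me1 in place of 95.7%. Wide H3K4me1 regions alone numbered 41, and merging regions under 1 kb apart gave 47. Peaks whose nearest coding start was that of the integrin gene numbered 28, or 2.96 per 100 kb. The central 200 bp held a RUNX consensus in 74.5% of peaks, in place of 97.9%. With a 50 kb flank 12 of the 17 other integrin genes had a peak, in place of 7. No paired analysis was possible because each antibody had 1 list. Depth and height are unknown from the lists, so a gene without a listed region is not shown to lack binding.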

Other observations

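Of the 47 Runx3 peaks at the 10 genes, 13 had another listed peak under 1 kb away (27.7%, Wilson 95% interval 16.9 to 41.8%), against 13.8% of all 15524 peaks. They formed 7 neighbouring pairs, and merging peaks under 1 kb apart reduced the 47 to 40. Since both peaks of a pair are counted, the 13 were not independent. The interval treats them as independent and is too narrow, so it does not settle the contrast with all peaks. At Itgb2 merging does not remove the split into an upstream and a downstream group, since no peak lies between -7.77 kb and the peak over the TSS.

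The size of the window changed the genes unequally. With no flank Itgal kept 1 of its 5 peaks and Itgb2 kept 5 of its 10, while Itgae, Itga1 and Itgb1 kept all of theirs (3, 3 and 2). With 50 kb on either side Itgb1 went from 2 to 8 peaks and Itgb2 reached 12. Itga1 went from 3 to 7, and the 4 added peaks are those of Itga2 intron 1, already counted for Itga2.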
